A study of Mus musculus with 16 samples.

Results

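The comparison set the 2 libraries labelled p53KO_G2 against the 3 labelled p53KO_3dai, 5 of the 16 RNA libraries of a series on sorted mouse muscle stem cells. The members were taken by their titles. All 5 came from C57BL/6 mice aged 2 to 3 months labelled p53KO, so loss of p53 is shared by both groups, and the labels name neither the allele nor a Cre driver. Sorting kept cells with CD34 and the integrin that Itga7 codes on their surface, and left out cells with Sca-1, CD45, CD31 or CD11b. The p53KO_G2 cells came from hind limb muscles and the p53KO_3dai cells from the tibialis anterior, so the group and the muscle of origin cannot be told apart. What 3dai and G2 stand for is not spelled out in the labels. Reference points below are the p53KO libraries with no suffix (n = 3, hind limb muscles), p53WT_G2 (n = 2) and p53WT_3dai (n = 3). They came from the same strain and age. All 16 libraries, with the p53WT libraries of no suffix among them, also entered the fit and its estimate of the spread.

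Muscle stem cells, also called satellite cells, lie quiescent beside the muscle fibre and depend on Pax7. When activated they leave quiescence, replicate their DNA and divide as myoblasts, and later leave the cell cycle again. Differentiating cells then switch on Myog, fuse and build the sarcomere, while a fraction returns to quiescence. The replication, mitosis, fusion, sarcomere and quiescence genes are thus used at different points of this path. Whether their transcripts here came from the stem cells alone was not tested.

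The values are FPKM, fragments scaled to transcript length and to the number of fragments mapped, and differences are on the log2(FPKM + 1) scale, G2 minus 3dai, which understates the change of genes with low values. A gene was called when limma's adjusted p was below 0.05. Nothing in the labels says that replicates came from separate animals. The p-values thus measure only the spread between samples of a group, pooled over all 16 libraries. The 5 libraries held 10240 to 11420 genes at 1 FPKM or more, and their sequencing depth is unknown from the files. The libraries of each group were not equally alike: p53KO_3dai replicate 1 correlated with replicates 2 and 3 at 0.917 and 0.920 across 11510 genes, while those 2 correlated with each other at 0.963 and the p53KO_G2 libraries at 0.908. The small RNA name Mir6236 took 9.81% and 10.1% of all FPKM in p53KO_3dai replicates 2 and 3, and 1.31% to 1.56% in the other libraries.

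The transcripts of the sorted surface proteins were measured first. Cd34 stood at 58.9 and 28.9 FPKM in G2 and 77.1, 44.4 and 61.1 in 3dai, and Itga7 at 173 and 305 against 181, 226 and 216; neither was called. Pecam1, which codes CD31, was at 0.0432 and 1.11 FPKM in G2 and listed at 0 in 3dai, and Itgam and Ptprc were listed at 0 in all 5 libraries. Ly6a, which codes Sca-1, reached at most 6.60 FPKM. Trp53, the gene named by the genotype, was lower in G2, at 16.7 and 19.8 FPKM against 41.3, 45.7 and 34.9 in 3dai (log2 difference -1.11, SE 0.24, adjusted p = 0.00418). The p53WT libraries showed a Trp53 difference of similar size at a higher level, 71.0 and 59.9 FPKM in p53WT_G2 against 134, 135 and 161 in p53WT_3dai (-1.12, adjusted p = 0.00426).

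How did p53KO_G2 cells differ from p53KO_3dai cells across the transcriptome? Muscle structural, matrix, interferon response, immediate early and quiescence genes were higher in G2, and genes of DNA replication, mitosis, and nucleotide and one-carbon synthesis were lower. Of 11510 genes tested 3069 were called (26.7%), 2096 higher in G2 (18.2%) and 973 lower (8.45%), and by unadjusted p below 0.05 there were 4519. The rises were larger: 1800 of the higher genes differed by 2-fold or more and 207 by 8-fold or more, against 574 and 10 of the lower genes. The 2 groups did not overlap in 6052 genes (52.6%), with all G2 libraries above in 30.1% of the genes tested and below in 22.4%. The median difference of all genes was 0.11, and 68.3% of the calls were higher in G2; under quantile normalization, which moved that median to -0.11, the split was 1569 higher and 1445 lower, 52.1% higher. Without p53KO_G2 replicate 2 the counts fell to 1142 higher and 405 lower. Without p53KO_3dai replicates 2 or 3 the lower count was 550 or 535.

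**Figure D1:**
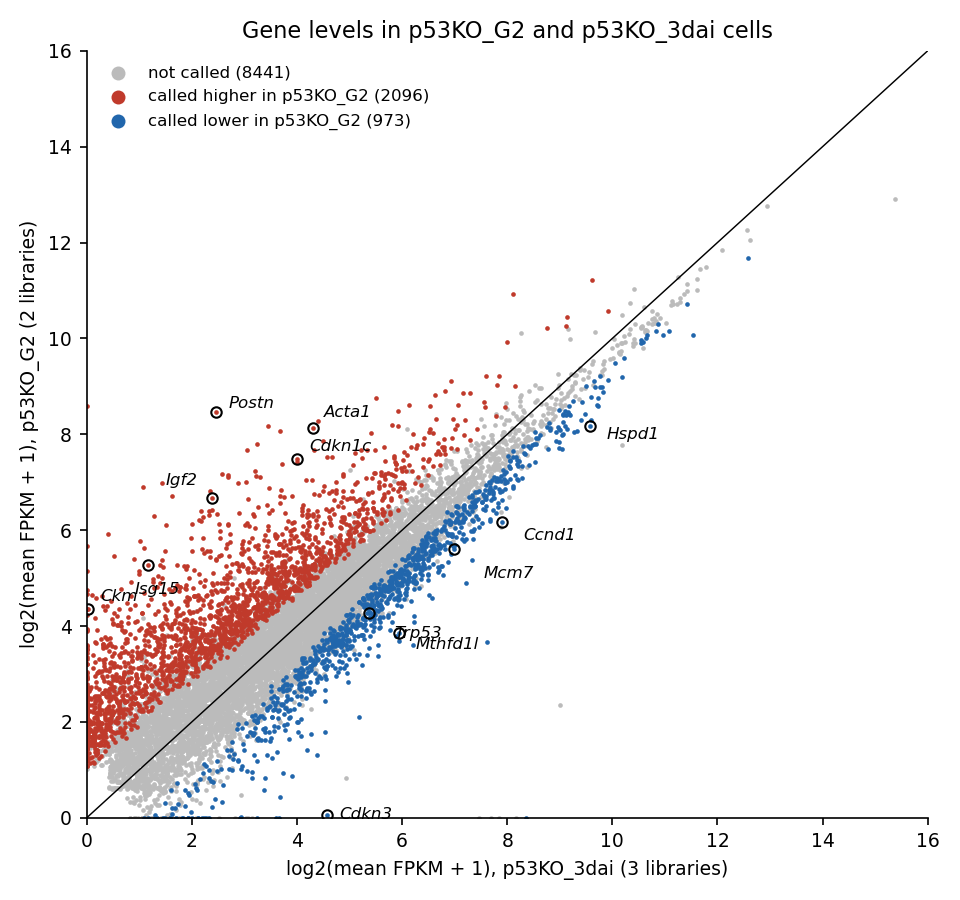
Level of each of 11510 genes in p53KO_G2 (vertical) against p53KO_3dai (horizontal), both as log2(mean FPKM + 1). Red points are the 2096 genes called higher in G2, blue points the 973 called lower and grey points the rest; the diagonal marks equal levels. The red cloud reaches farther from the diagonal than the blue one.

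Of 31 cyclins, E2F genes and other G1/S regulators tested, 8 fell and 3 rose (Myc, Rb1 and Rbl2), with a median of -0.48; under quantile normalization 8 fell and 1 rose. Ccnd1, the D-type cyclin that starts passage through G1, stood at 73.1 and 69.6 FPKM in G2 and 158, 289 and 267 in 3dai (log2 difference -1.68, SE 0.38, adjusted p = 0.00494). Its partner Cdk4 was at 201 and 213 FPKM against 434, 407 and 468 (-1.07), and Cdk1, the kinase of mitotic entry, at 35.6 and 38.4 against 97.0, 118 and 104 (-1.49, adjusted p = 0.00585). For all 3 genes both G2 libraries lay below every 3dai library, as for 22.4% of all genes tested. Myc, a transcription factor of growth, went the other way, at 133 and 162 FPKM against 93.0, 24.8 and 23.9 (1.91, adjusted p = 0.0028), with p53KO_3dai replicate 1 nearest to G2. Ccnd3, the D-type cyclin of differentiating muscle, was at 54.6 and 63.2 FPKM against 39.4, 48.7 and 44.9 and was not called. Without p53KO_G2 replicate 2 the list had 3 falls and 1 rise, and without p53KO_3dai replicate 2 it had 5 and 1.

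Of 8 genes listed as CDK inhibitors 3 rose and 1 fell (median 1.04). Cdkn1c, which codes p57 and is expressed from the maternal allele, rose most: 143 and 214 FPKM in G2 against 9.01, 21.2 and 14.7 in 3dai (3.54, SE 0.50, adjusted p = 0.000174). It was also low in p53KO cells with no suffix, at 22.7, 23.7 and 14.6 FPKM, so the G2 libraries were the highest of the 8 p53KO libraries. Cdkn2a, the locus of p16 and p19Arf, rose to 96.4 and 77.3 FPKM from 20, 15.2 and 13.3 (2.36, SE 0.51, adjusted p = 0.00336), and was at 1.4, 0 and 0 with no suffix. A gene-level FPKM does not separate the products of Cdkn2a. Cdkn1b, which codes p27, stood at 37.6 and 37.8 FPKM against 31.7, 11.3 and 12.3 (1.15, adjusted p = 0.0198) but lost the call without p53KO_G2 replicate 1 (0.0803) or 2 (0.0977) and without p53KO_3dai replicate 2 (0.083) or 3 (0.0784). Cdkn1a, the p53 target p21, was at 137 and 168 FPKM against 179, 65.7 and 62.6 and was not called; without p53KO_3dai replicate 1 its difference was 1.23 (adjusted p = 0.0002). Without that library the list had 5 rises, and with it alone in its group 1 rise and a median of 0.004. The gene that fell, Cdkn3, codes a phosphatase of CDKs and is described with the genotypes below.

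Genes of DNA replication fell: 22 of 46 tested were called lower and none higher, with a median of -1.05. The list spans the MCM helicase, the polymerases, the clamp loader and the enzymes of deoxynucleotide supply. Mcm7, a subunit of the replicative helicase, stood at 47.8 and 48.0 FPKM in G2 and 129, 124 and 124 in 3dai (-1.37, SE 0.18, adjusted p = 9.84e-05). Mcm10, a factor of replication initiation, was at 8.80 and 6.38 FPKM against 27.0, 22.2 and 17.9 (-1.44, adjusted p = 0.00237). The libraries of 3dai lay close together for Mcm7, and both G2 libraries were far below them. In p53KO cells with no suffix Mcm7 was at 15.8, 11.8 and 14.4 FPKM and Mcm10 at 0.489 or less, so G2 lay between the other 2 groups for both genes. The count was 4 of 46 without p53KO_G2 replicate 2 and 14 without p53KO_3dai replicate 3, with medians of -0.76 and -1.07.

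Mitosis genes followed: 33 of 69 tested were called lower and none higher, with a median of -0.93. Spc24, a subunit of the kinetochore's Ndc80 complex, stood at 30.6 and 29.9 FPKM in G2 and 76.2, 86.2 and 104 in 3dai (-1.51, SE 0.27, adjusted p = 0.000892). Hmmr, a spindle protein, was at 19.6 and 9.78 FPKM against 30.5, 47.4 and 50.8 (-1.53, adjusted p = 0.00396), a call lost without p53KO_G2 replicate 2 (0.0829). Mki67, the common marker of cycling cells, was at 47.9 and 33.8 FPKM against 89.0, 95.0 and 82.1 (-1.12, adjusted p = 0.0229), and 0.0674 and 0.188 without p53KO_3dai replicate 2 and p53KO_G2 replicate 2. The 2 G2 libraries differed here: the mean log2(FPKM + 1) of the list was 4.81 in replicate 1 and 4.26 in replicate 2, against 5.29 to 5.45 in 3dai and 0.88 to 1.02 with no suffix. Without p53KO_G2 replicate 2 the count was 5, and without p53KO_3dai replicate 2 it was 18. G2 libraries thus held mitotic transcripts far above the libraries with no suffix and below those of 3dai.

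Promoters of cell cycle genes often hold a cell cycle homology region, searched here as TTTGAA, and a CCAAT box, searched as CCAAT, each on both strands in the 250 bases before the start. Of the 33 mitosis genes called lower 27 had a promoter in RefSeq's GRCm38.p6 table; 9 held the first motif (33.3%, against 16% of 32851 promoters), 20 the second (74.1%, against 33.8%) and 7 both (25.9%, against 5.55%). A gene counted if any of its promoters matched, while the shares of all promoters count each promoter alone. The percentages are therefore not like for like. Stretches with both motifs are printed for 3 of the 7 to show their spacing, 5′ to 3′ on the gene's strand, with the motifs in capitals. Ect2 (chr3:27153904-27154017, minus strand) codes a cytokinesis regulator, Espl1 (chr15:102296224-102296292, plus strand) codes separase, and Cenpn (chr8:116921697-116921739, plus strand) codes a centromere protein.
Ect2: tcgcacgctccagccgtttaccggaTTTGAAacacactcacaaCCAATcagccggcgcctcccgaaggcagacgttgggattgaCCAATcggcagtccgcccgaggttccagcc
Espl1: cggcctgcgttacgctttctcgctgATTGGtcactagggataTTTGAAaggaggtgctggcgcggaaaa
Cenpn: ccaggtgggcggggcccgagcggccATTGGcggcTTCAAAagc
Ect2 stood at 22.5 and 20.9 FPKM in G2 against 44.1, 50.7 and 58.1 in 3dai, and Espl1 at 6.80 and 4.15 against 12.1, 15.0 and 12.9. Cenpn was at 10.9 and 5.41 FPKM against 27.5, 28 and 17.9 (-1.52, adjusted p = 0.0264), and was not called without p53KO_G2 replicate 2 (0.238) or p53KO_3dai replicates 1 (0.0545) or 2 (0.0791). A match of letters is a description of the sequence and not a site.

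Genes of biosynthesis were lower in the same libraries. For serine, one-carbon and nucleotide synthesis 16 of 29 tested genes fell and none rose, with a median of -0.91. Mthfd1l, the mitochondrial formate-making enzyme, stood at 11.9 and 15.2 FPKM in G2 and 61.9, 63.5 and 56.6 in 3dai (-2.1, SE 0.27, adjusted p = 7.97e-05). Mthfd1, its cytosolic counterpart, was at 29.3 and 18.8 FPKM against 82.5, 97.4 and 91.4 (-1.90), and Phgdh, which opens serine synthesis, at 67.8 and 63.3 against 174, 173 and 176 (-1.4). Gart, of purine synthesis, was at 47.5 and 22.9 FPKM against 78.3, 123 and 109.7 (-1.60). For these 4 genes the groups did not overlap, as for 52.6% of all genes tested. The count was 8 without p53KO_G2 replicate 2.

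Lists of protein synthesis, folding and respiration were also counted. Of 39 proteasome and CCT chaperonin genes 14 fell, with a median of -0.58; Cct2 stood at 313 and 316 FPKM in G2 and 602, 699.6 and 725 in 3dai (-1.09, SE 0.15, adjusted p = 0.000162). The count was 3 without p53KO_G2 replicate 2 and 7 without p53KO_3dai replicates 2 or 3. Of 55 cytosolic ribosomal protein genes 6 fell (median -0.42), close to the 8.45% of all genes, with 3 and 1 without p53KO_G2 replicates 1 and 2 and 0 without p53KO_3dai replicates 2 or 3; under quantile normalization 1 fell and the median was -0.11. Of 50 oxidative phosphorylation genes 6 fell (median -0.32), again close to the share of all genes, with 0 without p53KO_G2 replicate 2 and 2 and 1 without p53KO_3dai replicates 2 and 3; under quantile normalization 3 fell and the median was -0.15. None of these 3 lists had a member called higher. By FPKM without further scaling, both G2 libraries lay below every 3dai library for 45 of the 55 ribosomal protein genes. The same held for 31 of the 39 proteasome and CCT genes and 25 of the 50 oxidative phosphorylation genes, beside 22.4% of all genes tested.

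Of 22 glycolysis genes 6 fell and 6 rose (median 0.12). Those called lower were the enzymes Aldoa, Gapdh, Pgk1, Eno3, Pkm and Ldha, and those called higher were the transporters Slc2a1, Slc2a3 and Slc16a3, the hexokinase Hk2 and the regulators Pfkfb3 and Pdk1. Pgk1 (adjusted p = 0.152) and Hk2 (0.0799) lost the call without p53KO_G2 replicate 2, and Slc16a3 (0.16) without p53KO_G2 replicate 1. Gapdh stood at 408 and 374 FPKM in G2 and 756, 857 and 893 in 3dai (-1.09, SE 0.17, adjusted p = 0.00031). Slc2a1, the glucose transporter GLUT1, was at 83.2 and 57.7 FPKM against 38.0, 15.8 and 17.1 (1.62, adjusted p = 0.00179). The falls were 3 without p53KO_G2 replicate 2. In cholesterol synthesis and uptake 3 of 24 genes fell and 1 rose (median -0.26), beside 8.45% and 18.2% of all genes. Falls and rises were 4 and 0 without p53KO_G2 replicate 2. They were 2 and 0 without p53KO_3dai replicate 2, and 2 and 2 without p53KO_3dai replicate 1.

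**Figure D2:**
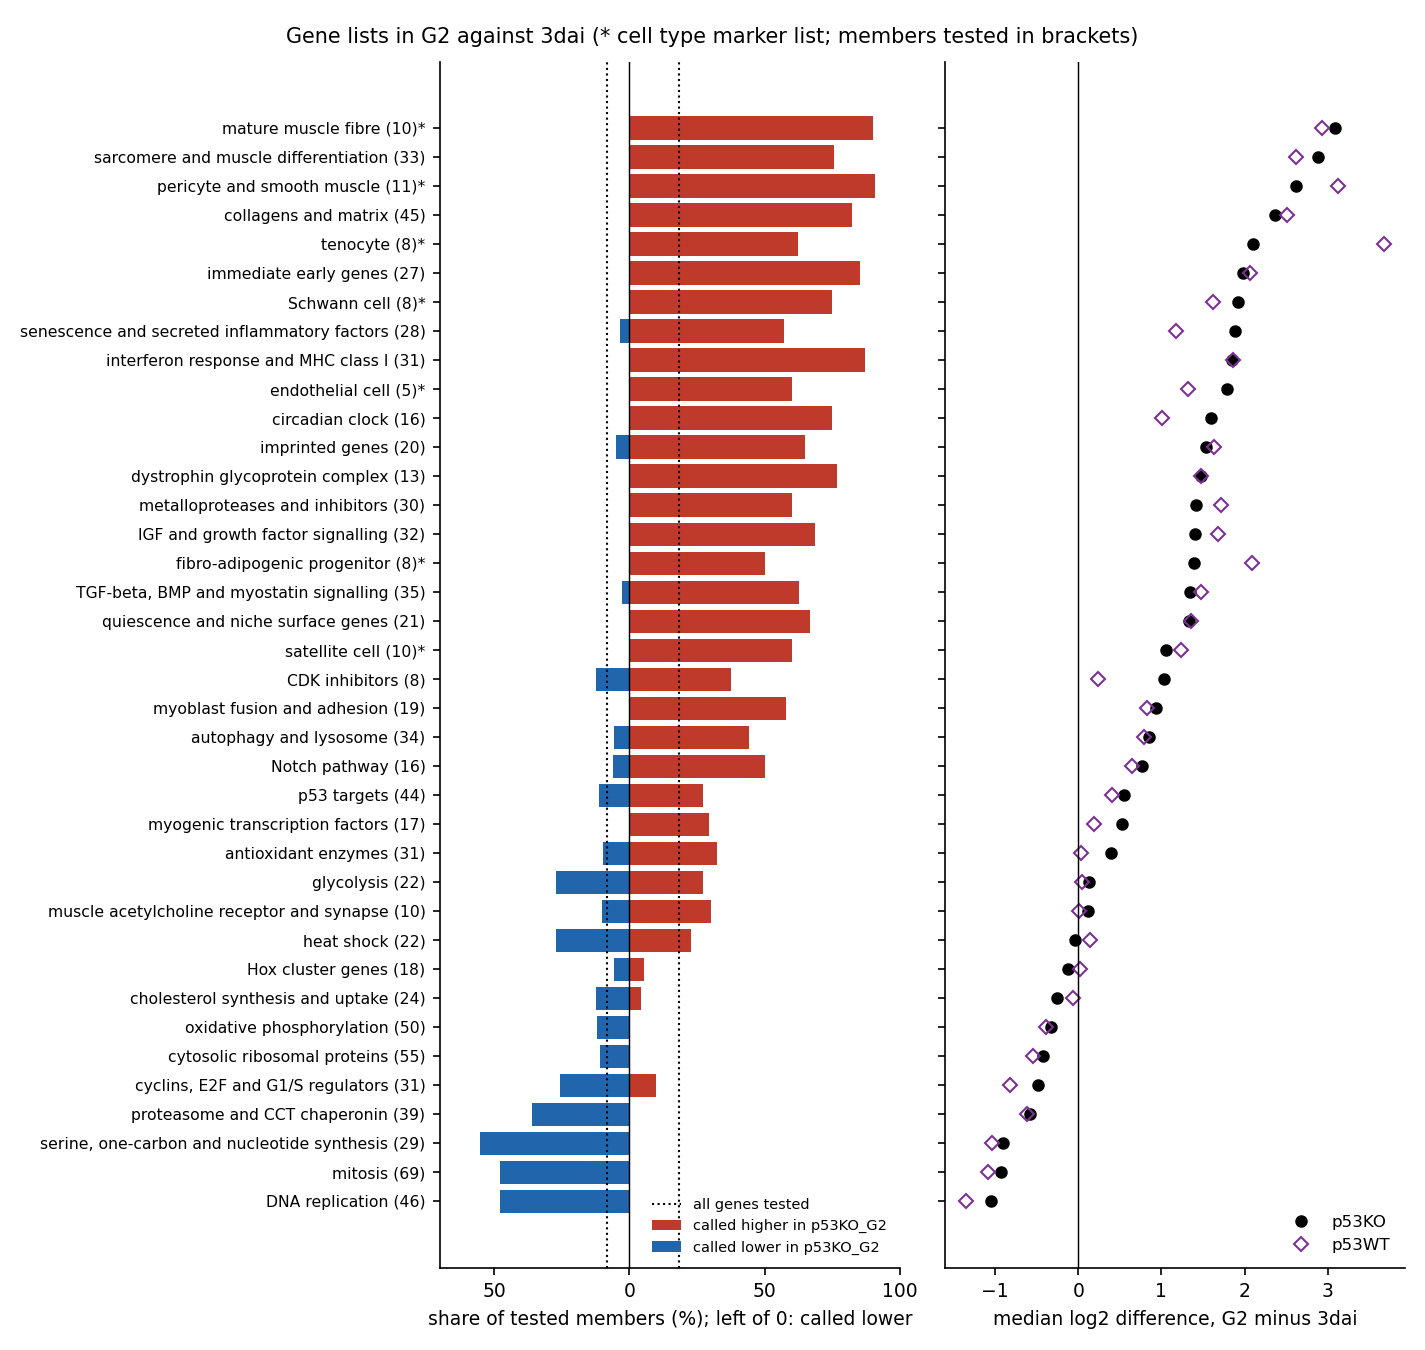
Left, share of the tested members of each list called higher (red, right of 0) or lower (blue, left of 0) in p53KO_G2, with dotted lines at the shares of all genes, 18.2% and 8.45%. Right, median log2 difference G2 minus 3dai of the same members in p53KO (filled circles) and p53WT (open diamonds). Mature muscle fibre and sarcomere genes have the highest p53KO medians, and DNA replication, mitosis, and serine and one-carbon genes the lowest.

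Muscle structural genes had the highest median of the pathway lists. Of 33 sarcomere and muscle differentiation genes tested 25 rose and none fell, with a median of 2.89. Tnni1, the slow skeletal troponin I also made in developing muscle, stood at 73.7 and 72.3 FPKM in G2 and 5.81, 0 and 4.34 in 3dai (4.48, SE 0.96, adjusted p = 0.00349). Myl4, an embryonic light chain of myosin, was at 62.2 and 106 FPKM against 8.73, 1.89 and 2.04 (4.22, SE 0.65, adjusted p = 0.000345), and Myh3, the embryonic myosin heavy chain, at 38.3 and 86.9 against 7.12, 4.06 and 3.18 (3.40). Acta1, skeletal alpha-actin, reached 168 and 392 FPKM from 31.3, 9.87 and 15.2 (3.85, SE 0.62, adjusted p = 0.000453). Ckm, the muscle creatine kinase, was at 10.5 and 28.3 FPKM against 0, 0.0461 and 0. Most of these genes were higher in G2 replicate 2 than in replicate 1, and the list's mean was 5.25 and 4.32 in those libraries, 2.28 to 2.60 in 3dai and 2.27 to 2.43 with no suffix.

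Markers of mature muscle fibre, the multinucleated cell beside which the stem cells lie, were higher as well. Of 10 tested 9 rose and none fell (median 3.08), 5 of them shared with the sarcomere list (Acta1, Ckm, Mylpf, Tnnt3 and Tnnc2). Their summed level was 535 and 1010 FPKM in G2 and 77.8 to 87.8 in 3dai. Pvalb, of fast fibres, was at 6.81 and 15.5 FPKM and listed at 0 in 3dai; Myh4, an adult fast myosin, at 1.38 and 6.89 FPKM against 0, 0 and 0.108. Myh2 and Myh7 did not reach the filter. The part of fibre RNA in the sarcomere result was not tested.

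Of the transcription factors of muscle, 5 of 17 rose and none fell (median 0.52), and 2 rose without p53KO_G2 replicate 2, 3 without p53KO_3dai replicates 2 or 3. Myog, the factor of terminal differentiation, stood at 136 and 229 FPKM in G2 and 21.4, 31.6 and 20.1 in 3dai, against 0.410, 1.86 and 7.91 with no suffix. Its difference of 2.83 (SE 0.92) was called at an adjusted p of 0.0337 and not with any library left out (0.0566 to 0.19). The groups did not overlap for Myog, as for 52.6% of all genes tested. Msc, which codes the repressor musculin, was at 46.2 and 50.5 FPKM against 14.8, 0.996 and 0 (3.96, SE 0.72, adjusted p = 0.0011). Myod1, at 161 and 174 FPKM against 205, 253 and 255, was not called (-0.50, adjusted p = 0.297). Myf5, at 62.2 and 61.1 FPKM against 67.5, 23 and 20.3, was not called either, except without p53KO_3dai replicate 1 (1.47, adjusted p = 0.00441).

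Genes of fusion and adhesion rose in 11 of 19 cases, with no fall and a median of 0.93; without p53KO_G2 replicates 1 or 2 the rises were 6, and without p53KO_3dai replicate 3 they were 7. Gm7325, the gene of the fusion micropeptide myomixer, stood at 45.8 and 47.0 FPKM in G2 and 2.95, 0.645 and 1.88 in 3dai (4.16, SE 0.64, adjusted p = 0.000309), and at 0 in each of the 3 libraries with no suffix. Its partner Tmem8c, myomaker, was at 24.3 and 56.4 FPKM against 15.6, 11.3 and 12.0 and was not called. Of 10 genes of the acetylcholine receptor and synapse 3 rose and 1 fell. Musk, the receptor kinase of the synapse, was at 47.7 and 43.0 FPKM against 11.2, 7.73 and 9.5 (2.16, SE 0.29, adjusted p = 0.000121), while the receptor subunits Chrna1, Chrnb1, Chrnd and Chrng were not called. The fall was of Lrp4, a coreceptor of Musk, at 4.31 and 3.30 FPKM against 6.56, 19.1 and 17.6 (-1.56, adjusted p = 0.0174), and it was lost without either G2 library or p53KO_3dai replicates 2 or 3 (0.0507 to 0.117).

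The dystrophin glycoprotein complex, which anchors the fibre membrane to the matrix, rose in 10 of 13 genes and fell in none (median 1.48), and in 4 without p53KO_G2 replicate 2. Sntb1, a syntrophin, was at 14.5 and 16.1 FPKM against 1.41, 5.04 and 1.49 (2.30, adjusted p = 0.00245). Dmd, which codes dystrophin itself, was at 3.26 and 5.57 FPKM against 1.95, 0.826 and 1.04 (1.25, adjusted p = 0.0097; 0.122 without p53KO_G2 replicate 2). In the libraries with no suffix Dmd was higher than in either group, at 18.3 ± 3.21 FPKM (SD, n = 3).

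Muscle promoters commonly hold E-boxes, the sites of MyoD family factors. The E-box CAGCTG, the same on both strands, lay in the 250 bases before the start in 12 of the 22 sarcomere genes called higher that had a RefSeq promoter (54.5%), against 13% of all promoters. A gene counted here if any of its promoters matched, so the percentages are not like for like. Stretches are shown for 3 of these genes, with the E-box in capitals: Tnni1 (chr1:135799328-135799383, plus strand), Klhl41 (chr2:69669968-69670023, plus strand), which codes a sarcomere protein, and Acta1 (chr8:123894966-123895021, minus strand).
Tnni1: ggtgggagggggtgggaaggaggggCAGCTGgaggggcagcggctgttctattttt
Klhl41: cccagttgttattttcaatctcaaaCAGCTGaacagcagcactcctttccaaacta
Acta1: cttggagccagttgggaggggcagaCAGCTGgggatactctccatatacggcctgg
Klhl41 stood at 22.4 and 58.7 FPKM in G2 against 1.61, 2.82 and 0.704 in 3dai.

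**Figure D3:**
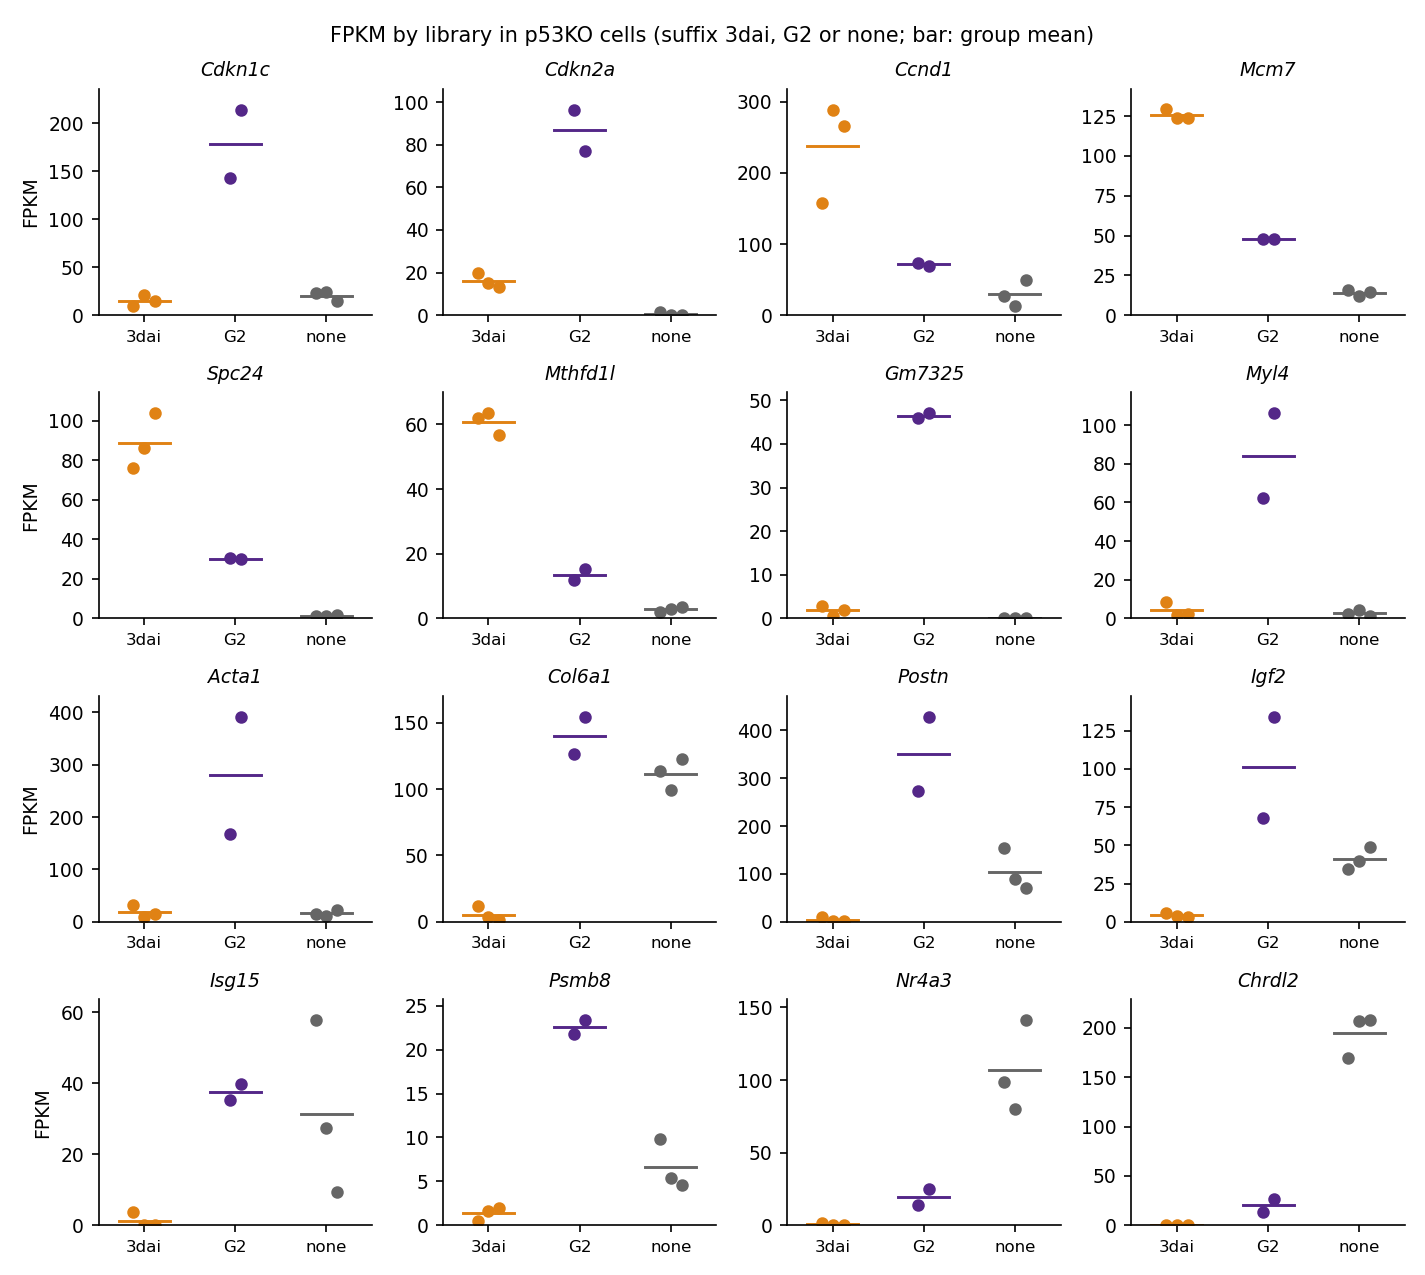
FPKM of 16 genes in each p53KO library (points) with the group mean (bar), for 3dai (orange, 3 libraries), G2 (purple, 2) and no suffix (grey, 3). For every gene shown the G2 and 3dai points do not overlap, as for 52.6% of all genes tested, and the genes were picked among those called. Cdkn1c, Cdkn2a, Gm7325, Myl4 and Acta1 are high in G2 alone, Chrdl2 and Nr4a3 are highest with no suffix, and Mcm7, Spc24 and Mthfd1l in G2 lie between the other groups.

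Genes listed for satellite cell quiescence and niche surface were higher in G2: 14 of 21 rose and none fell (median 1.33). Without p53KO_G2 replicate 2 the rises were 9. The list also counts the CDK inhibitor gene Cdkn1c, at 143 and 214 FPKM in G2 and 22.7, 23.7 and 14.6 with no suffix. Chrdl2, a secreted BMP binding protein, stood at 13.8 and 26.9 FPKM in G2 and 0.250, 0.466 and 0 in 3dai (4.05, SE 0.30, adjusted p = 1.55e-06), and at 169, 207 and 208 with no suffix. Calcr, the calcitonin receptor that holds satellite cells in quiescence, was at 7.32 and 11.9 FPKM against 0.0195, 0 and 0.232 (3.26, SE 0.38, adjusted p = 4.09e-05), and at 36.9, 43.1 and 72.2 with no suffix. Both genes in G2 thus lay above every 3dai library and well below every library with no suffix. Pax7 stood at 13.1 and 22.0 FPKM against 5.22, 10.5 and 10.8 and was not called (0.93, SE 0.57, adjusted p = 0.239). Cd34 and Met, also on the list, were not called.

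Notch signalling, in which a receptor is cut after it meets a ligand on the next cell and then drives Hes and Hey genes, rose in 8 of 16 genes and fell in 1 (median 0.76). Among the receptors Notch3 was at 32.2 and 63.9 FPKM in G2 and 8.20, 8.48 and 5.46 in 3dai (2.49, SE 0.32, adjusted p = 8.31e-05). Among the targets Heyl was at 10.9 and 18.5 FPKM against 0.900, 1.92 and 1.45 (2.67, adjusted p = 0.000342), and Nrarp, a feedback inhibitor, at 10.0 and 16.3 against 3.26, 0.0235 and 0.711 (2.82, adjusted p = 0.00183). Of the ligands Jag2 went the other way, at 3.29 and 3.41 FPKM against 6.12, 10.6 and 9.78 (-1.14, adjusted p = 0.016; 0.0564 to 0.0737 without p53KO_G2 replicates 1 or 2 or p53KO_3dai replicates 2 or 3). The rises were 4 without p53KO_G2 replicate 2 or p53KO_3dai replicate 2, and 5 without p53KO_3dai replicate 3. Notch3 is also a pericyte marker.

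Matrix genes rose almost throughout: 37 of 45 tested were called higher and none lower, with a median of 2.37. Postn, the matricellular protein periostin, had the largest rise the naming rule found, 273 and 429 FPKM in G2 against 10.4, 1.95 and 1.11 in 3dai (6.37, SE 0.53, adjusted p = 2.86e-06). Col6a1, of the microfibrillar collagen around fibres, was at 126 and 154 FPKM against 11.6, 3.32 and 1.37 (4.80, SE 0.45, adjusted p = 6.9e-06), and Col1a1, of fibrillar collagen, at 131 and 92.8 against 8.61, 2.45 and 1.12 (4.75). Replicate 1 of 3dai was the highest of its group for all 3 genes. In the libraries with no suffix Col6a1 was at 113, 99.3 and 122 FPKM, below but near the G2 level, and Postn at 154, 88.8 and 69.6, below it.

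Enzymes that cut the matrix and their inhibitors rose in 18 of 30 cases and fell in none (median 1.41). Mmp14, a membrane collagenase, stood at 86.5 and 57.8 FPKM in G2 and 7.84, 1.26 and 1.53 in 3dai (4.28, SE 0.51, adjusted p = 4.48e-05), and Timp3, an inhibitor bound to the matrix, at 63.3 and 104 against 10.8, 0.873 and 0.471 (4.68, SE 0.61, adjusted p = 8.67e-05). In TGF-beta, BMP and myostatin signalling 22 of 35 genes rose and 1 fell (median 1.35). Ltbp4, which stores TGF-beta in the matrix, was at 39.2 and 54.0 FPKM against 6.92, 2.27 and 2.53 (3.38, SE 0.31, adjusted p = 6.53e-06), and the ligand Tgfb1 at 40.6 and 28.5 against 12.2, 2.78 and 4.35 (2.44). The gene that fell was Gdf11, a ligand related to myostatin, at 2.53 and 2.04 FPKM against 6.04, 6.21 and 9.57 (-1.31, adjusted p = 0.00458). Ctgf, a TGF-beta target, showed p53KO_3dai replicate 1 apart, with 77.4 and 105 FPKM against 47.6, 0.939 and 0.211 (4.24, adjusted p = 0.0079; 0.0668 without p53KO_G2 replicate 2).

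Markers of other cell types of muscle were higher in the same G2 libraries. Of 11 pericyte and smooth muscle markers 10 rose, of 8 tenocyte markers 5, of 8 Schwann cell markers 6 and of 8 fibro-adipogenic markers 4, with no fall in any list and medians of 2.62, 2.1, 1.92 and 1.4. The summed FPKM of the pericyte list was 1100 and 1498 in G2 and 224 to 318 in 3dai, of the tenocyte list 326 and 445 against 91.5 to 132, of the Schwann list 259 and 279 against 44.6 to 109, and of the fibro-adipogenic list 271 and 205 against 25.6 to 58.4. Acta2, smooth muscle actin, was at 249.6 and 365 FPKM against 31.3, 15.5 and 13.4, and Tnmd, of tendon, at 16.1 and 23.1 with 0 listed in 3dai. Des and Notch3 of the pericyte list stand in muscle lists too. The tenocyte list and its sum include Egr1, an immediate early gene that is not particular to tendon. Some defining markers were low: Pdgfra, of fibro-adipogenic cells, at 2.44 and 0.622 FPKM in G2, Sox10, of Schwann cells, at 1.69 and 3.13, and Kcnj8, of pericytes, at 1.01 and 3.27. Scx, a transcription factor of tendon, was not called, at 18.1 and 31.0 FPKM against 45.4, 31.6 and 32.0.

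In the p53KO libraries with no suffix, from the same muscles as G2, the tenocyte and Schwann lists were higher than in G2 and the pericyte list spanned the higher G2 library, with pericyte, tenocyte and Schwann mean log2(FPKM + 1) of 5.10 to 5.75, 4.77 to 5.05 and 4.63 to 4.94; G2 had 4.68 and 5.48, 3.53 and 3.57, and 3.77 and 3.90. In such bulk samples fewer cells of a type and less RNA per cell cannot be told apart. The part of these cell types in the matrix, metalloprotease, TGF-beta and growth factor results was not tested. Of endothelial markers 3 of 5 tested rose (1 without p53KO_G2 replicate 2), at a summed level of 14.6 and 28 FPKM in G2 and at most 3.90 in 3dai; of 3 macrophage markers tested none was called and of 2 adipocyte markers Fabp4 rose. The neutrophil list had 1 gene tested, the protease Mmp9, which rose, and no T cell or red blood cell marker reached the filter.

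**Figure D4:**
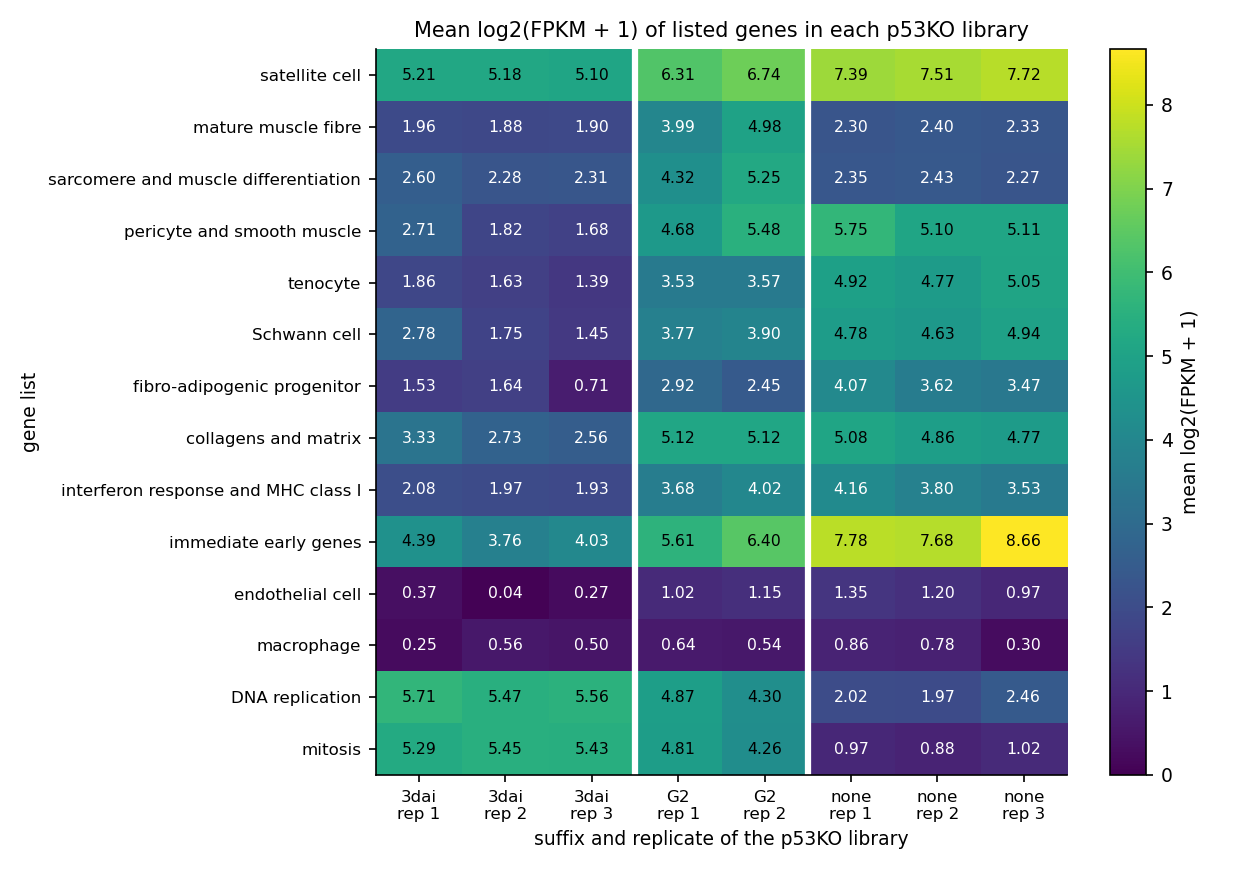
Mean log2(FPKM + 1) of the listed genes (rows) in each p53KO library (columns: 3dai, G2 and no suffix); brighter cells are higher. Sarcomere and mature fibre genes are bright in the 2 G2 libraries alone, marker lists of pericytes, tenocytes and Schwann cells are bright in G2 and with no suffix, and mitosis genes fall from 3dai to G2 to no suffix.

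Growth factor genes rose in 22 of 32 cases and fell in none (median 1.4). Igf2, an embryonic growth factor made in differentiating myoblasts, stood at 67.9 and 134 FPKM in G2 and 5.90, 3.55 and 3.17 in 3dai (4.25, SE 0.30, adjusted p = 1.46e-06), and at 34.8, 39.4 and 48.6 with no suffix. Hgf, which activates satellite cells through Met, was at 10.8 and 9.86 FPKM and listed at 0 in all 3dai libraries. Igfbp7, a secreted IGF binding protein, was at 136 and 138 FPKM against 18.2, 4.63 and 3.68 (4.12, SE 0.47, adjusted p = 3.49e-05), and the receptor Fgfr1 at 134 and 144 against 46.4, 20.9 and 17.7 (2.38). Imprinted genes, of which one parental copy is silent, rose in 13 of 20 cases and fell in 1 (median 1.53), with 7 rises without p53KO_G2 replicate 2. Meg3, a maternally expressed noncoding RNA, was at 5.25 and 19.2 FPKM against 0.142, 0.476 and 0.0299 (3.22, adjusted p = 0.000311). Mest, a paternally expressed hydrolase gene, was at 294 and 346 FPKM against 85.5, 129 and 83.4 (1.70; adjusted p = 0.0531 without p53KO_G2 replicate 2). Peg10 went the other way, at 12.3 and 17.1 FPKM against 40.6, 48.1 and 51.7 (-1.62, adjusted p = 0.0061; 0.0596 without p53KO_G2 replicate 1). Igf2 and Cdkn1c are imprinted too and are counted in more than 1 list.

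Interferon response and MHC class I genes, by which cells report viral nucleic acid and present peptides, rose in 27 of 31 cases and fell in none, with a median of 1.85; without p53KO_G2 replicate 2 the rises were 17. Isg15, a ubiquitin-like modifier, stood at 35.4 and 39.8 FPKM in G2 and 3.69, 0 and 0 in 3dai (4.53, SE 0.66, adjusted p = 0.000227). Gbp2, a guanylate binding protein, was at 37.6 and 38.2 FPKM against 2.95, 0.694 and 1.27 (3.97, SE 0.61, adjusted p = 0.000301). Psmb8, a subunit of the immunoproteasome, was at 21.8 and 23.4 FPKM against 0.438, 1.64 and 1.94 (3.40, SE 0.42, adjusted p = 5.92e-05), and B2m, the light chain of MHC class I, at 586 and 594 against 221, 179 and 174 (1.63). The 2 G2 libraries agreed closely on these genes. With no suffix Psmb8 was at 9.85, 5.36 and 4.60 FPKM, below G2, and Isg15 at 57.8, 27.3 and 9.37, on both sides of G2. Macrophage markers summed to 18.9 and 7.5 FPKM in G2 and 2.87 to 9.95 in 3dai, and Ptprc was listed at 0.

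The interferon-stimulated response element was searched as GAAA, any 2 bases and GAAA, on both strands in the 250 bases before the start. It was found in 10 of the 25 interferon and MHC genes called higher that had a RefSeq promoter (40%), against 2.98% of 32851 promoters. Here too a gene counted if any of its promoters matched, so the percentages are not like for like. Stretches are given for Isg15 (chr4:156200850-156200921, minus strand), with 3 overlapping matches, Gbp2 (chr3:142620579-142620638, plus strand), with 1, and Gbp3 (chr3:142559974-142560039, plus strand), with 2 that overlap, the matches in capitals.
Isg15: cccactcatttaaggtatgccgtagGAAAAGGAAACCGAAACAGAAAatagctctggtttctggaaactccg
Gbp2: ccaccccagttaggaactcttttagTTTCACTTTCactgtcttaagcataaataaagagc
Gbp3: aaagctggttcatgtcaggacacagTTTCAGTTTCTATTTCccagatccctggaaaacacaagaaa
Gbp3, another guanylate binding protein gene, was at 10.6 and 11.1 FPKM in G2 against 1.44, 3.00 and 0.369 in 3dai.

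Secreted inflammatory and senescence-linked factors rose in 16 of 28 cases and fell in 1 (median 1.89). Il6, a cytokine of stressed and regenerating muscle, stood at 79.4 and 171 FPKM in G2 and 19.1, 0 and 0 in 3dai (5.43, SE 1.04, adjusted p = 0.00159), and Ccl11, an eosinophil chemokine, at 50.5 and 35.3 against 0.367, 0.642 and 0.291 (4.92, SE 0.69, adjusted p = 0.000169). In p53KO_3dai replicate 1 several of these genes were near the G2 level: Cxcl1 was at 141 FPKM there and at 12.9 and 10.3 in the other 2, with 237 and 347 in G2 (3.35), and Ccl2 at 62.9 there, 1.20 and 2.51 in the others and 44.8 and 45.1 in G2. Ccl2 was not called (2.54, adjusted p = 0.0622), and without that library it was (4.04, adjusted p = 2.63e-05). These factors were not high in G2 alone: Il6 was at 378, 141 and 63.2 FPKM with no suffix, and Ccl11 at 520, 133 and 42.3. The list's mean log2(FPKM + 1) was 4.28 in each G2 library and 4.08 to 5.13 with no suffix. Spp1, osteopontin, was the gene that fell, at 614 and 246 FPKM against 735, 861 and 946 (-1.11, adjusted p = 0.0137; 0.283 without p53KO_G2 replicate 2).

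Immediate early genes, switched on rapidly by growth factors and stress, rose in 23 of 27 cases and fell in none (median 1.98), with 11 rises without p53KO_G2 replicate 2. Nr4a3, an orphan nuclear receptor, was at 13.7 and 25.3 FPKM in G2 and 1.70, 0.281 and 0.346 in 3dai (3.56, SE 0.42, adjusted p = 4.29e-05), and Egr3 at 22.5 and 32.0 against 2.04, 2.44 and 2.73 (3.04, adjusted p = 0.000225). Fos was at 163 and 409 FPKM against 48.5, 54.9 and 75.8 (2.12, adjusted p = 0.0092; 0.146 without p53KO_G2 replicate 2). With no suffix Nr4a3 was at 98.6, 80.3 and 141 FPKM, above both groups. Of 22 heat shock genes 5 rose, close to the 18.2% of all genes, and 6 fell, beside 8.45% of all genes (median -0.04). The falls were 2 without p53KO_G2 replicate 2 and 3 without p53KO_3dai replicates 2 or 3. The small chaperone Cryab was at 218 and 204 FPKM against 87.3, 34.6 and 26.5 (2.26, adjusted p = 0.000493), and Hspd1, the mitochondrial chaperonin, at 345 and 226 against 651, 787 and 855 (-1.44, adjusted p = 0.00146).

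Antioxidant genes rose in 10 of 31 cases and fell in 3 (median 0.39), the falls being close to the 8.45% of all genes. Without p53KO_G2 replicate 2 there were 6 rises and 1 fall. The median was 0.69 without p53KO_3dai replicate 1 and 0.20 with that library alone in its group. Gpx3, a secreted glutathione peroxidase, stood at 353 and 505 FPKM in G2 and 78.6, 28.7 and 26.1 in 3dai (3.40, SE 0.33, adjusted p = 9.24e-06). Srxn1, a target of the oxidative stress factor Nrf2, was at 182 and 208 FPKM against 77.4, 10.8 and 12.5 (3.07). Hmox1, another such target, did not separate the groups, with 545 and 221 FPKM against 264, 3.58 and 5.56 (4.12, SE 1.25, adjusted p = 0.0242; 0.067 to 0.15 without p53KO_G2 replicates 1 or 2 or p53KO_3dai replicates 2 or 3). Clock genes rose in 12 of 16 cases and fell in none (median 1.60), 6 without p53KO_G2 replicate 2. Bhlhe40, a repressor of the clock, was at 62.8 and 52.1 FPKM against 24.5, 4.95 and 4.69 (2.61, SE 0.55, adjusted p = 0.00313). The activator Arntl rose with the repressors, at 13.5 and 22.0 FPKM against 11.4, 3.19 and 2.88 (1.64; adjusted p = 0.117 without p53KO_G2 replicate 2). Autophagy and lysosome genes rose in 15 of 34 cases and fell in 2 (median 0.86; 0 falls without p53KO_G2 replicate 2 or p53KO_3dai replicates 2 or 3, 1 without p53KO_G2 replicate 1), with Map1lc3a, of the autophagosome membrane, at 84.3 and 124 FPKM against 20, 9.28 and 5.84 (3.18, SE 0.41, adjusted p = 7.97e-05).

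Genes known as p53 targets differed in both directions in these p53KO cells: 12 of 44 rose and 5 fell (median 0.55), the falls being close to the 8.45% of all genes. Under quantile normalization 9 rose and 7 fell, with a median of 0.21. The rises included Fas, a death receptor, at 31.3 and 19.6 FPKM in G2 and 6.24, 0 and 0 in 3dai (3.74, SE 0.76, adjusted p = 0.00237), and Ephx1, an epoxide hydrolase, at 11.8 and 18.3 against 1.4, 0.344 and 0 (3.41, adjusted p = 1.77e-05). Phlda3, which restrains Akt, was at 55.2 and 41.8 FPKM against 18.9, 12.1 and 12.9 (1.68), and Pmaip1, which codes Noxa, at 31.4 and 28.2 against 14.9, 8.20 and 11.1 (1.35). Trp53i11 was the largest fall, at 24.9 and 32.4 FPKM against 114, 164 and 164 (-2.31, SE 0.49, adjusted p = 0.00297). Mdm2, Ccng1 and Zmat3, common readouts of p53 activity, were not called. The rises were 6 without p53KO_G2 replicate 2 and 20 without p53KO_3dai replicate 1. The falls were 2 without p53KO_G2 replicate 1 and 3 without p53KO_G2 replicate 2 or p53KO_3dai replicate 2.

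Hox and limb identity genes, which differ with position in the body, were tested because the muscles differed: of 18, Hoxd8 was called higher and Hoxc4 lower, and the median was -0.13; under quantile normalization 0 were higher and 4 lower, with a median of -0.50. Hoxd8 stood at 5.53 and 4.15 FPKM in G2 and 1.18, 0 and 1.34 in 3dai (1.75, adjusted p = 0.018; 0.0635 to 0.102 without either G2 library or p53KO_3dai replicate 2). Hoxc4 was at 0 and 0.433 FPKM against 2.08, 1.85 and 3.10 (-1.46, adjusted p = 0.00578; 0.0577 without p53KO_G2 replicate 1). Tbx4, a factor of hind limb identity, was not called, at 5.51 and 7.33 FPKM against 2.04, 3.54 and 4.22. The tibialis anterior is itself a hind limb muscle, so Tbx4 need not separate the groups. The part of the muscle in the other results was not tested.

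Beside Postn, Il6 and Ccl11, the largest rises included secreted and surface genes. Procr, the protein C receptor of endothelial and stem cells, stood at 92.1 and 146 FPKM in G2 and 3.34, 0 and 0 in 3dai (6.16, SE 0.98, adjusted p = 0.000416), Sparcl1, a matrix protein, at 74.4 and 176 against 4.21, 0.709 and 0.145 (5.74), and Mgp, which restrains calcification, at 328 and 208 against 24.3, 1.41 and 9.46 (4.93). Rasd1, a small GTPase induced by glucocorticoids, was at 22.5 and 77.8 FPKM and Defb25, a beta-defensin, at 49.3 and 19.2, both listed at 0 in 3dai. All 5 were also at 19.7 FPKM or more in each library with no suffix. Crispld2, Nrep, the smooth muscle myosin Myh11 and the fibroblast gene Dpt completed the list of 12, with differences of 4.93 to 5.39.

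The largest falls included Mcpt8, a basophil protease, listed at 0 in both G2 libraries and at 15.9, 6.77 and 12.5 FPKM in 3dai, and Podnl1, a small leucine-rich proteoglycan, at 0.152 and 2.79 against 16.3, 21.6 and 21.8 (-3.31, SE 0.43, adjusted p = 8.91e-05). With no suffix both genes were listed at 0 throughout. Cxadr, a cell adhesion protein that viruses use as receptor, was at 1.02 and 0.799 FPKM against 7.66, 12.8 and 16.7 (-2.75, adjusted p = 0.000113), and Krt80, a keratin, at 0.622 and 1.04 against 13.3, 12.3 and 16.2 (-3.03). Tmem171 and Tmem238 fell by 2.86 and 2.81. Ass1, Rad1, Tdg and Tsacc met the rule as well, but each lost its call without p53KO_G2 replicate 2 (adjusted p 0.242, 0.0827, 0.143 and 0.0849), and Tdg without any of the 5. Of the 155 called genes that the rule named, 102 kept the call whichever of the 5 libraries was left out.

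Did G2 and 3dai differ in the same way in p53WT cells? In p53WT, with no library shared, 1658 genes were called higher (14.4%) and 875 lower (7.6%), and 1789 genes were called in both genotypes, all in the same direction. That is 58.3% of the p53KO calls and 70.6% of the p53WT calls, and the differences of the 11510 genes correlated at 0.772, across genes that are not independent replicates. Both comparisons used the same estimate of each gene's spread, from the same fit, so their calls are not independent. The muscle differed in the same way in both genotypes. DNA replication had 36 falls of 46 in p53WT (median -1.35) and mitosis 44 of 69 (-1.09), and sarcomere genes 30 rises of 33 (2.62). Interferon and MHC genes rose in 27 of 31 cases in either genotype (medians 1.86 in p53WT and 1.85 in p53KO). Other lists differed more between the genotypes. Clock genes rose in 5 of 16 cases in p53WT (median 1.01) and 12 in p53KO (1.60). Of 44 p53 targets 6 rose and 2 fell in p53WT (median 0.41), against 12 and 5 in p53KO (0.55). Medians of CDK inhibitors were 0.24 in p53WT and 1.04 in p53KO, and of secreted inflammatory factors 1.17 and 1.89. Of the members of these lists only Cdkn3 was called in the test of the difference between genotypes.

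**Figure D5:**
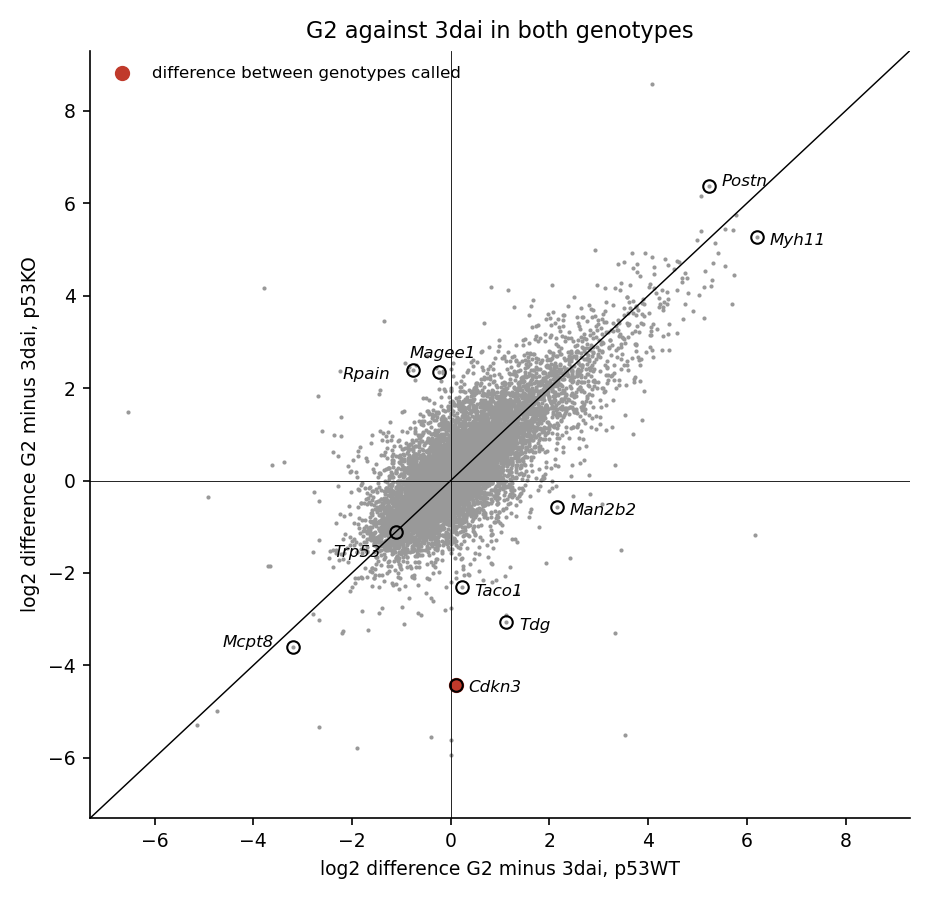
Log2 difference G2 minus 3dai of 11510 genes in p53KO (vertical) and p53WT (horizontal), with the diagonal of equal differences. Most genes lie along the diagonal; Cdkn3 (red) is the 1 gene whose difference between genotypes was called, at -4.43 in p53KO and 0.10 in p53WT.

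The test of the difference between genotypes called 1 gene of 11510 (0.00869%), and 607 had an unadjusted p below 0.05. That gene was Cdkn3, a dual-specificity phosphatase that acts on CDKs. It stood at 0 and 0.0844 FPKM in p53KO_G2 and 15.5, 33.4 and 19.1 in p53KO_3dai (-4.43, SE 0.36, adjusted p = 2.38e-06), and at 9.97 and 14.7 in p53WT_G2 and 9.05, 16.6 and 9.37 in p53WT_3dai (0.10, adjusted p = 0.874). The interaction was -4.53 (SE 0.51, adjusted p = 0.00207). Both p53KO_G2 libraries were thus at or near 0, while all other libraries of G2 and 3dai held the transcript; p53KO cells with no suffix were listed at 0. Cdk1 stood at 35.6 and 38.4 FPKM in the p53KO_G2 libraries. Why Cdkn3 was at or near 0 in them was not tested. Without p53KO_3dai replicate 1 the interaction test called 108 genes.

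Other genes with the smallest interaction p did not pass. Rpain, which imports replication protein A, stood at 16.1 and 17.9 FPKM in p53KO_G2 against 8.11, 0.829 and 1.46 in p53KO_3dai, and at 6.73 and 9.02 in p53WT_G2 against 11.3, 12.5 and 18.8 in p53WT_3dai (interaction 3.14, SE 0.74, adjusted p = 0.429). Magee1, of the MAGE family, was at 11.4 and 6.67 FPKM against 1.06, 0.624 and 1.13 in p53KO, and at 3.49 and 2.69 against 3.91, 5.46 and 2.51 in p53WT (2.58, adjusted p = 0.429). Taco1, a mitochondrial translation activator, was at 2.87 and 1.61 FPKM against 25, 10.7 and 12.0 in p53KO, and at 11.2 and 11.9 against 9.65, 14.6 and 6.39 in p53WT (-2.54, adjusted p = 0.429).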

How the data were processed

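RNA of 16 libraries was quantified by the authors, who deposited 1 FPKM table per library with 24341 gene symbols. The submitters' processing notes name STAR, Cufflinks and Cuffdiff as tools and mm10 as the build. No version of these tools was given in the sources used here. The libraries, per the labels' protocols, were directional and made from total RNA.

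FPKM were taken to log2(FPKM + 1), and genes with at least 1 FPKM in at least 2 of the 5 libraries were kept (11510). All 16 libraries were fitted together, with 6 group means, with limma 3.58.1 in R 4.3.3, letting the variance follow the mean level, and p-values were adjusted by Benjamini-Hochberg over all genes tested; a call is an adjusted p below 0.05, two-sided. The interaction is the p53KO difference minus the p53WT difference. FPKM carry no read depth, so no interval from counts is given, and an exact 0 is reported as listed: 12 of 4015 genes with a median over 20 FPKM were at 0 in 1 or more of the 5 libraries, and 114 called genes were at 0 in all p53KO_3dai libraries and 24 in both p53KO_G2 libraries. Promoter stretches are from RefSeq's table for GRCm38.p6, the assembly of mm10.

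The groups compared, the 43 gene lists and the naming rule were chosen with earlier results of these data known. The rule takes Trp53 and the sort markers, the 12 largest called rises and falls whose groups do not overlap and whose higher group averages 5 FPKM or more, up to 3 called rises and 3 falls from each list (the 2 smallest p where none was called), and 5 genes in each direction from the interaction, without small RNAs and unnamed loci. Other list members, such as Pax7, Myod1, Fos, Dmd and Tbx4, were picked as examples after their values were seen. The alternatives changed the pseudocount (0.1), the filter (none, or a mean of 5 FPKM over the libraries), the scaling (quantile, median-of-ratios, or totals without mitochondrial and small RNA names), the weighting of arrays, the groups entering the fit, the treatment of values with failed status (as missing) and the model (the replicate number as a block), or left out libraries, keeping the 11510 genes.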

Additional observations from a re-analysis of the deposited data

Results flagged for a closer look

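Cdkn3 was singled out because its difference between G2 and 3dai differed between genotypes by a test of that difference itself. The interaction, p53KO minus p53WT, was -4.53 on the log2 scale (adjusted p = 0.00207, limma over 11510 genes), with 0 and 0.0844 FPKM in the p53KO_G2 libraries and 9.97 and 14.7 in p53WT_G2. Over the alternatives and left-out libraries the interaction ran from -7.42 to -4.08. It was called at an adjusted p of 0.000387 to 0.0425, except when the fit held the 4 groups involved and no others (0.062) and with p53KO_3dai replicate 1 alone in its group (0.0574).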

How the results depend on the processing

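The counts of 2096 higher, 973 lower and 1 interaction call were recomputed under each alternative. When the fit held no other groups than those compared 1251 were higher and 0 were called in the interaction (651 by unadjusted p below 0.05); with p53KO_3dai replicate 1 alone in its group 709 were higher, 146 lower and 0 in the interaction (508). Without a filter 5 were called in the interaction. With each library left out in turn the higher count ran from 1142 to 2441, the lower from 405 to 1001 and the interaction from 1 to 108. Deviations of same-numbered G2 and 3dai libraries from their group means correlated at -0.014 and -0.008. The deviations of the 2 G2 libraries mirror each other, so this cannot show whether samples were paired. With the replicate block 1913 were higher, 846 lower and 1 in the interaction. The median difference of all genes was -0.11 under quantile normalization and 0.03 under median-of-ratios scaling, and no called named gene changed direction under an alternative that tested it (134 of the 155 were tested with a filter at a mean of 5 FPKM). With p53KO_3dai replicate 1 alone in its group 76 of the 155 lost their call, and the medians of the myogenic factor, p53 target, heat shock and glycolysis lists changed sign. The glycolysis and heat shock medians also changed sign under other settings, as did that of the acetylcholine receptor list with a filter at a mean of 5 FPKM, under which no endothelial marker was left.

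Reversals were seen in genes that were not called. With each library left out Itga7 ran from -0.26 (without p53KO_G2 replicate 2) to 0.56, Ly6a from -1.20 to 0.58 (0.58 without p53KO_G2 replicate 1, 0.55 without p53KO_3dai replicate 2), Lyz2 from -0.56 (without p53KO_G2 replicate 1) to 3.40 (without p53KO_G2 replicate 2, where it was called), Cenpq from -0.32 (without p53KO_G2 replicate 1) to 0.45, and Man2b2 from -1.21 to 0.077 (without p53KO_G2 replicate 1). Cenpq was also at -0.048 without p53KO_3dai replicate 1, -0.03 under median-of-ratios scaling, -0.017 with small RNA and mitochondrial names left out and -0.006 with array weights. Ly6a differed by 0.22 with p53KO_3dai replicate 1 alone in its group. With p53KO_3dai replicate 1 alone in its group Myf5 differed by -0.13, Cdkn1a by -0.23 and Ccl2 by -0.48. The cause of these changes was not tested. Calls rest on 2 G2 libraries that differ from each other, and without read counts no limit of detection can be given.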
